A study of Homo sapiens with 4 samples.

Results

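The short arm of chromosome 9 (9p) was examined by the windows that it has in a deposited table of enriched DNA. Its members are the 500 bp windows listed on chromosome 9 of hg19 that end at or before position 38500000, and they number 13586 of 956365 listed windows, or 1.42%. The table was made from 4 libraries of FaDu cells (FADU in the labels), a human epithelial line established from a hypopharyngeal squamous cell carcinoma. The libraries were Hypoxia (scrambled control), from cells kept at 1% O2 for 18 h, Hypoxia (TET1-si), at 1% O2 for 19 h, Normoxia (scrambled control) and Normoxia (TET1-si), with 1 library per condition. According to the methods, TET1, an enzyme that oxidises 5-methylcytosine (5mC) to 5-hydroxymethylcytosine (5hmC), was knocked down with short hairpin RNAs delivered by lentivirus. All 4 libraries are of 1 cell line, and the knockdown could not be checked in DNA windows. The titles call the libraries hMeDIP-seq, the extraction text of the labels names an antibody to 5-methylcytidine, and the methods describe chemical capture of 5hmC, so that it is not settled which of the 2 marks was enriched.

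The table holds windows that passed a minimum of 20 whose exact rule is not given in the sources used here. The names of its 4 value columns match no sample, so these values were not used, and a listed window cannot be assigned here to hypoxia or normoxia. A window that is not listed may still have had reads. Which windows are listed was therefore compared along the arm, without a test between conditions. Because an enriched library covers windows in step with their base composition, each observed number was set against a predicted number, obtained from the listed share of autosomal windows that match it in CpG number and in GC content to within a step of 25 bases. The ratio of listed over predicted windows is 1 where a region is listed as often as other windows of its composition. Intervals are 95% Wilson intervals, which cover counting error with windows taken as independent. Neighbouring windows are not replicates of a condition, so no p-value was computed.

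The short arm of chromosome 9 is known in carcinoma biology for the 9p21 locus. CDKN2A encodes 2 proteins from alternative first exons, p16INK4a, which inhibits the cyclin D-dependent kinases CDK4 and CDK6, and p14ARF, which stabilises p53. CDKN2B encodes the related inhibitor p15INK4b, CDKN2B-AS1 (ANRIL) is an antisense long non-coding RNA, and MTAP salvages methionine from methylthioadenosine. Towards the end of the arm, in 9p24, lie CD274 (PD-L1) and PDCD1LG2 (PD-L2), ligands of the inhibitory T cell receptor PD-1, and JAK2, the kinase of many cytokine receptors. CpG islands, dense clusters of CpG sites at the start sites of many genes, are generally free of 5mC when a gene can be transcribed, and their edges are called shores.

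To show the kind of sequence that lies at the start sites of the locus, the 200 bases upstream of 4 of them are given from GRCh37, 5′ to 3′ on the strand of the gene, with each CG in capitals. The stretch of CDKN2A-201, the transcript of p16INK4a, is chr9:21974866-21975065 (minus strand) and holds 17 CG. That of CDKN2A-214, the transcript of p14ARF, is chr9:21994411-21994610 (minus strand) with 19 CG. For these transcripts the stretch begins 10 and 20 bases upstream of the start site, so as to avoid the first exon of other transcripts. CDKN2B-201 has chr9:22009305-22009504 (minus strand) with 17 CG, and MTAP-213 has chr9:21802435-21802634 (plus strand) with 10 CG.
CDKN2A-201: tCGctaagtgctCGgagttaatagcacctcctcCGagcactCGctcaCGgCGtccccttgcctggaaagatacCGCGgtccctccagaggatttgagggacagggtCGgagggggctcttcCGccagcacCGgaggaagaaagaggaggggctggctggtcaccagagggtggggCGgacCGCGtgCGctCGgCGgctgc
CDKN2A-214: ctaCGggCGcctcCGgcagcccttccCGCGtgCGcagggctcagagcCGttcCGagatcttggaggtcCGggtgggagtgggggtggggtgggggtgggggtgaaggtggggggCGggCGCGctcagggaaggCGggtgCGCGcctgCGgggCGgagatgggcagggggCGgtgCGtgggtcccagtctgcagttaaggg
CDKN2B-201: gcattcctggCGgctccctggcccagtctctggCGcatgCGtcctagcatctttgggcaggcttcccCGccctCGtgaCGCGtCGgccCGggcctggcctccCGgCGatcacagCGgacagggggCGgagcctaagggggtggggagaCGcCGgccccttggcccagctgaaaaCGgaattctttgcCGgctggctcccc
MTAP-213: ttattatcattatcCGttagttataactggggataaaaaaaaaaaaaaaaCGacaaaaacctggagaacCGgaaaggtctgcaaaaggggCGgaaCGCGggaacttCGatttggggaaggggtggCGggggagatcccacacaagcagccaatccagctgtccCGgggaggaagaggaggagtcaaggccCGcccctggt

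Of 76980 windows of the short arm without undetermined bases, 13586 were listed, a share of 17.6% (17.4 to 17.9%). This was also the share over all autosomes, 17.6% of 5368882 windows. The composition of the short arm predicted 13.5%, however, so that the ratio of listed over predicted was 1.31. On the long arm of chromosome 9, 35066 of 147750 windows were listed (23.7%), with a ratio of 1.15. This order of the arms depended on the prediction, as the ratio of the short arm was 0.744 times that of the long arm with no prediction and 0.998 times with a prediction from CpG number alone. It also turned, to 0.933 times, when the short arm was taken to the centromere gap. Up to position 38500000 the short arm ranked 7 of 39 autosome arms by the ratio of listed over predicted, but the other arms were not cut in this way. Taken to the gap its ratio was 1.07 instead of 1.31, a value between those of 6p (1.12) and 11q (1.02).

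The listing was far from even along the arm. In the 38 full bins of 1 Mb the ratio ran from 0.133 to 3.52, a range of 26.6 times. It was at or above 2 in 12 bins (31.6%), compared with 4.64% of 2694 autosomal bins, and at or below 0.5 in another 12 (31.6%), compared with 28.8% of autosomal bins. With no prediction, against the autosomal share alone, 6 bins were at or above 2. The limits of 2 and 0.5 were set after the values were seen. The median bin had a ratio of 0.75, close to the autosomal median of 0.795. The SD of the log2 ratio was 1.42 over the bins of the arm and 1.28 over those of the autosomes.

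The high bins formed 2 blocks. The first, from 4 to 7 Mb, had 3076 of 6000 windows listed (51.3%, 50.0 to 52.5%) where 15.4% were predicted, a ratio of 3.32. The second, from 10 to 19 Mb, had 5675 of 18000 (31.5%, 30.9 to 32.2%) and a ratio of 2.69. The 3 highest bins were 5 to 6 Mb, with 890 of 2000 windows and a ratio of 3.52, 14 to 15 Mb, with 903 and 3.39, and 4 to 5 Mb, with 1074 and 3.35. By start sites these are the bins of CD274 and ERMP1, of NFIB, and of AK3 and JAK2. Most of the body of JAK2 lies in the bin at 5 to 6 Mb. Over all autosomes the highest bin had a ratio of 3.83, and 5 bins were at or above the highest of the short arm, that bin included.

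The low bins lay mainly in the proximal part of the arm. From 24 to 27 Mb, 115 of 6000 windows were listed (1.92%, 1.60 to 2.30%) with a ratio of 0.206, and from 28 to 33 Mb, 281 of 10000 (2.81%, 2.50 to 3.15%) with a ratio of 0.296. The 3 lowest bins were 25 to 26 Mb, with 23 of 2000 windows and a ratio of 0.133, 30 to 31 Mb, with 27 and 0.169, and 29 to 30 Mb, with 27 and 0.173. The first of these holds TUSC1, a candidate tumour suppressor gene of a single exon, whose own 3 body windows were not listed while 3 of its 6 promoter windows were. A smaller low stretch from 1 to 3 Mb had 205 of 4000 windows and a ratio of 0.368. Single low bins lay at 20 to 21 Mb, with 86 of 2000 windows and a ratio of 0.385, and at 22 to 23 Mb, with 83 and 0.431. The gene-rich part from 33 to 38 Mb, which has 93 of the start sites of protein-coding genes, had 1865 of 10000 windows (18.7%) and a ratio of 0.803.

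Neighbouring bins had similar values, with a Pearson's r of 0.80 between the log2 ratios of 37 neighbouring pairs. The log2 ratio of a bin was only weakly related to its mean number of CpG sites (r = 0.20), its number of start sites (r = 0.08) or its share of unique sequence (r = -0.11). These correlations over 38 bins are descriptions, since the bins share the same libraries and depend on their neighbours. The borders of the blocks differed in width. In bins of 100 kb (200 windows each), 9 windows were listed at 3.5 Mb where 22.2 were predicted, 37 at 3.6 Mb and 77 at 3.8 Mb. The other borders were more gradual. The ratio went from 3.04 at 7.0 Mb through 1.99 at 7.2 Mb to 0.62 at 7.8 Mb, and from 0.67 at 9.7 Mb through 1.32 at 9.9 Mb to 2.07 at 10.1 Mb. At the end of the second block it was 1.49 at 19.0 Mb and 0.92 at 19.2 Mb, with 38 windows listed, before 11 were listed at 19.3 Mb and 0 at both 19.7 and 19.8 Mb, where 22.3 and 20.2 were predicted. The cause of these borders was not tested, and no genomic input library was analysed here.

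Within the high bins, windows of every CpG class were listed more often than over all autosomes. Windows with 8 to 15 CpG were listed at 71.9% (69.9 to 73.8%) in the 12 high bins and at 9.52% (8.04 to 11.2%) in the 12 low bins, with 40.5% over all autosomes. Even windows without any CpG inside them were listed at 9.09% (174 of 1915) in the high bins, compared with 1.85% over the autosomes and 0.246% (6 of 2436) in the low bins. CpG sites at the edges of such windows or in the windows next to them were not examined. Since high and low bins were defined by the listing itself, these shares describe how the excess was spread over the classes. An example of a listed window without CpG is chr9:14265501-14266000 in NFIB, chosen as the one in the 100 kb bin of highest ratio among 147 such windows of unique sequence outside annotated exons. Its composition predicted a listed share of 3.54%. Its 100 bases from chr9:14265701-14265800 (GRCh37, plus strand) are shown in lower case, as there is no CG to mark.
Window without CpG: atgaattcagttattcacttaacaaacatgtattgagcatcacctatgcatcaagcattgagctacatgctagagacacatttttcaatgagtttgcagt

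**Figure D1:**
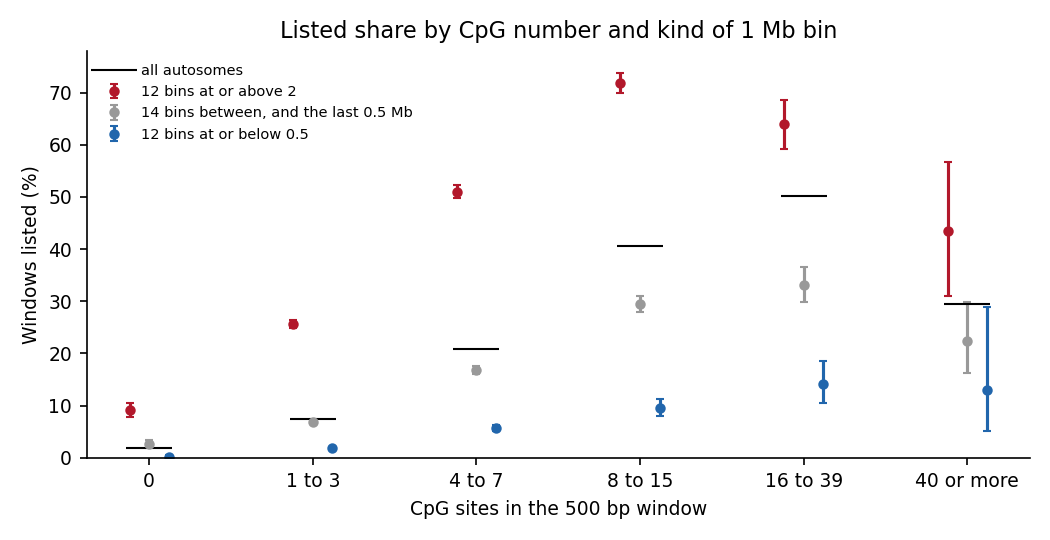
Share of windows listed, in percent, by the number of CpG sites in the window, for the 12 high bins (red), the 12 low bins (blue) and the rest of the arm (grey), with 95% Wilson intervals. Black lines give the share over all autosomes, and for windows with at least 1 CpG they lie between the red and the grey points.

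The excess was present inside and outside of genes. In the high bins 39.2% of 12575 windows in protein-coding gene bodies and 33.4% of 11425 windows outside were listed. In the low bins these shares were 4.63% of 5400 and 2.80% of 18600. Over the whole arm they were 22.5% in gene bodies and 13.8% outside. Because reads that map to more than 1 place were discarded, uniqueness was also considered. In windows where all 5 sampled 50-base sequences occur once in the genome, 35.2% were listed in the high bins and 3.24% in the low bins. These are most of the windows (20381 of 24000 in the high bins), so their shares are close to those over all windows (36.5% and 3.21%). The remaining windows were listed at 43.5% in the high bins, where 20.3% was predicted, and at 2.99% in the low bins, where 17.8% was predicted.

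Listed windows formed 5798 runs of adjacent windows, of which 2543 (43.9%) were single windows and 112 had 10 windows or more. The longest run had 40 windows at chr9:6630001-6650000 and lies at the start of GLDC, the glycine decarboxylase of the mitochondrial glycine cleavage system, of whose body 180 of 226 windows were listed (79.6%). The longest stretch with no listed window was chr9:19690501-19926000, 235500 bp in which 50.2 listed windows were predicted. It takes in the first part of SLC24A2, which encodes a sodium, calcium and potassium exchanger of neurons. There were 19 unlisted stretches of 100 kb or more. The matching numbers of runs and stretches over the autosomes were not computed, so these counts only describe the arm.

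The 9p21 locus, taken as 21 to 23 Mb, had 346 of 4000 windows listed (8.65%, 7.82 to 9.56%) with a ratio of 0.823. It lies between the high block that ends at 19 Mb and the low block from 24 to 27 Mb. Its bin at 22 to 23 Mb, which holds the start of CDKN2B, was itself low (0.431), as was the bin at 20 to 21 Mb (0.385). The bin at 21 to 22 Mb had a ratio of 1.15, and the locus was also uneven on a finer scale. The span of the type I interferon genes from IFNB1 to IFNE (chr9:21077103-21482312) had 23 of 811 windows (2.84%, 1.90 to 4.22%) and a ratio of 0.279. In contrast, from the start of MTAP to the end of CDKN2B-AS1 (chr9:21802635-22128102), 121 of 651 windows were listed (18.6%, 15.8 to 21.8%), with a ratio of 1.38. Of the 20 bins of 100 kb in the locus, 6 had more windows listed than predicted, all of them adjacent from 21.5 to 22.1 Mb, and from 22.3 to 23 Mb none had over 6.

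**Figure D2:**
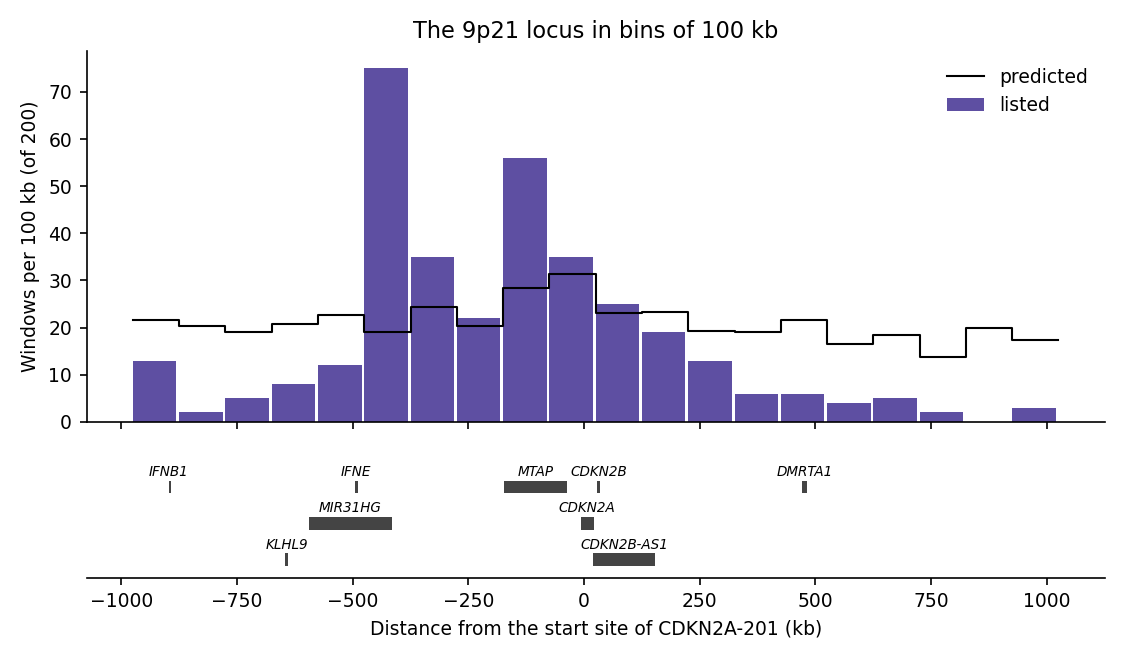
Number of listed windows (purple bars) and of predicted windows (black line) per 100 kb, each bin holding 200 windows, against the distance from the start site of CDKN2A-201 in kb, with genes of the locus below. The tallest bar, 75 windows, lies over the start of MIR31HG, and the bars over MTAP and CDKN2A are above the line, while the 9 bars farthest to the right are below it.

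CDKN2A (chr9:21967751-21995300) had 18 of 55 body windows listed (32.7%, 21.8 to 45.9%), with a ratio of 1.68 compared with 1.25 in the 500 kb on each side. MTAP (chr9:21802635-21937650) had 58 of 270 (21.5%, 17.0 to 26.8%), with a ratio of 1.60 and 1.13 in its flanks. CDKN2B, which is short, had 3 of 13 windows and a ratio of 1.25, and CDKN2B-AS1 had 36 of 268 and a ratio of 1.14. The interval of the share lay above the prediction for CDKN2A and MTAP and included it for CDKN2B and CDKN2B-AS1. These intervals take windows as independent although listed windows often came in runs, so they are no test between genes. DMRTA1, a DM domain factor beyond CDKN2B-AS1, had 0 of 17 windows listed, and KLHL9, a ubiquitin ligase adaptor, had 2 of 12.

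The windows that hold the start sites of the locus were not listed, whereas some windows farther upstream were. The window that holds the start has 42 CpG for CDKN2A-201, 48 for CDKN2A-214, 48 for CDKN2B-201 and 46 for MTAP-213. It was not listed for any of them, where 36.9% was predicted for such windows. An unlisted start window was common, as only 60 of 203 protein-coding genes of the arm (29.6%) had theirs listed. For CDKN2A-201 the next window upstream, with 29 CpG, was not listed either. All 5 windows beyond it, from chr9:21975501-21976000 to chr9:21977501-21978000, were listed and have between 4 and 20 CpG. CDKN2A-214 showed the same order on a larger island. Here the window of the start and the next 3 windows upstream, with 44, 50 and 43 CpG, were not listed, and the 3 farther ones, with 18, 12 and 4 CpG, were. MTAP had 3 of 6 promoter windows listed, centred at -885, -1385 and -1885 bp from the start, with 14, 8 and 5 CpG. CDKN2B had 1 of 6, centred at -446 bp with 9 CpG. Downstream, none of the windows within 3000 bp of either CDKN2A start was listed. All windows that hold these start sites have unique sequence, with 5 of 5 sampled sequences occurring once.

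The highest 100 kb bin of the locus was 21.5 to 21.6 Mb, with 75 of 200 windows listed where 19.0 were predicted, a ratio of 3.94. It holds the first part of MIR31HG, the host gene of the microRNA miR-31, which was singled out after the values were seen. MIR31HG (chr9:21380072-21559890) had 72 of 360 windows listed (20.0%, 16.2 to 24.4%), with a ratio of 1.87 compared with 0.92 in its flanks. The window at the start of the MIR31 hairpin, with 5 CpG, was listed, whereas the start of MIR31HG itself, with 64 CpG, had neither its own window nor any of 6 promoter windows listed. The mature microRNA is shown (RefSeq) with its seed, bases 2 to 8, in capitals, as its gene lies in the bin with the most listed windows of the locus.
hsa-miR-31-5p: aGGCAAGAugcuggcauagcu

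The type I interferons are antiviral cytokines encoded by small genes, most without introns. Of 17 interferon genes, 1 had a listed body window, IFNK, which lies apart from the cluster at 27.5 Mb and had 1 of 4. IFNA14 had 2 of 6 promoter windows and its start window listed. The other 15, among them IFNB1, IFNE and IFNA2, had no window listed in body or promoter. A listed promoter window was thus found in 2 of 17 interferon genes, compared with 71.9% of the genes of the arm and 76.6% of autosomal genes. This comparison is not matched for composition, and the start windows of the interferon genes hold only 1 to 6 CpG. The uniqueness of their promoter windows was not examined. Together the 17 bodies had 1 of 37 windows listed (2.70%, 0.479 to 13.8%), with 3.80 predicted. Only 62.2% of these body windows had unique sequence, since the IFNA genes are close copies of one another, so that missing windows of IFNA1, IFNA4, IFNA7, IFNA10, IFNA13 and IFNA17, where none was unique, cannot be told apart from reads discarded for mapping to several places. In IFNB1, IFNE and IFNA2 all body windows were unique.

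The 8 genes listed for 9p24, of which CD274, PDCD1LG2, JAK2 and IL33 act in immunity and 4 encode relaxin family hormones, lie in the first high block. Their median ratio was 2.96, while the median of the body ratio over the flank ratio was 0.82. All 8 had listed windows in body and promoter, where 76.6% of autosomal genes and 71.9% of the 203 genes of the arm had a listed promoter window and 30 of the 203 had no listed body window. The median over 105 protein-coding genes of the arm with at least 40 windows was 1.01. CD274 (chr9:5450503-5470566) had 25 of 40 body windows (62.5%, 47.0 to 75.8%) and a ratio of 5.68, the highest of those 105 genes, compared with 3.49 in its flanks. All 6 of its promoter windows and the window of its start, with 26 CpG, were listed. PDCD1LG2 had 63 of 122 windows and a ratio of 3.91, also with 6 of 6 promoter windows. JAK2 had 89 of 291 (30.6%, 25.6 to 36.1%) and a ratio of 2.43, below the 3.64 of its flanks, and its start window with 55 CpG was not listed. IL33, an alarmin released by damaged epithelium, had 25 of 84 and a ratio of 3.64. Among the relaxin family hormones, INSL6 had 48 of 123 and a ratio of 3.48, while RLN1, RLN2 and INSL4 had 3 of 10, 2 of 9 and 1 of 8. The ratios of these last 3 were 1.57, 1.44 and 1.23, below the 3.54, 3.56 and 3.54 of their flanks.

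Of 4 genes of chromatin and DNA methylation, 2 were far above the prediction and 2 below it. UHRF2, a relative of the maintenance factor UHRF1 that can bind 5hmC, had 127 of 188 windows listed (67.6%, 60.6 to 73.8%) and a ratio of 4.48. KDM4C, a demethylase of histone H3 lysine 9, had 467 of 909 (51.4%) and a ratio of 3.01. Both lie in the high block from 4 to 7 Mb or at its edge, with flank ratios of 3.10 and 2.50. SMARCA2, the BRM ATPase of the SWI/SNF complexes, had 41 of 426 (9.62%, 7.17 to 12.8%) and a ratio of 0.571, above the 0.243 of its flanks. MLLT3, a subunit of elongation complexes fused to KMT2A in leukaemia, had 23 of 562 (4.09%) and a ratio of 0.386, next to 0.377 in its flanks. None of these 4 start windows, with 31 to 59 CpG, was listed. Over the arm the start window was listed for 60 of 203 protein-coding genes (29.6%), so most genes lacked it.

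The 10 developmental transcription regulators covered nearly the whole range of the arm, with a median ratio of 1.13. NFIB, a nuclear factor I protein, had 374 of 634 body windows (59.0%, 55.1 to 62.8%) and a ratio of 4.51, compared with 2.77 in its flanks. The highest 100 kb bin of the arm, at 14.2 Mb, lies in this gene, with a ratio of 5.92. BNC2, a zinc finger protein of keratinocytes and pigmentation, had 410 of 923 and a ratio of 2.98, and GLIS3, a Krüppel-like factor of pancreas and thyroid, had 442 of 1049 and a ratio of 2.79. In contrast, RFX3, a regulator of cilia, had 10 of 615 (1.63%, 0.886 to 2.97%) and a ratio of 0.182, while its flanks, which reach into GLIS3, were at 1.18. The start of RFX3, at position 3526001, lies in the last 100 kb bin before the rise at 3.6 Mb. ELAVL2, a neuronal RNA-binding protein kept in this list, had 46 of 273 windows (16.8%, 12.9 to 21.7%) and a ratio of 1.32, compared with 0.396 in its flanks. DMRT2 had 10 of 15 windows and all 6 promoter windows listed, with a ratio of 2.21, next to DMRT1 at 0.391 and DMRT3 at 0.94. PAX5, the B cell factor of 9p13, had 98 of 402 and a ratio of 0.753.

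**Figure D3:**
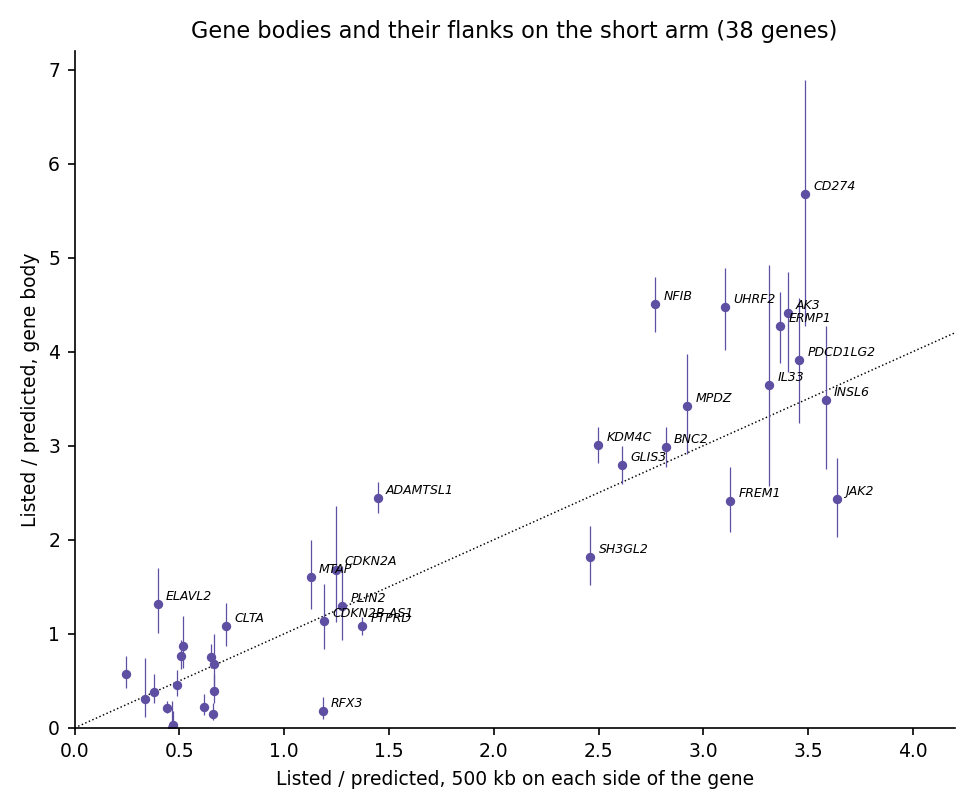
Ratio of listed over predicted windows in the gene body (with the 95% Wilson interval of the share over its prediction) against the ratio in the 500 kb on each side, for 38 genes of the lists and of the extremes with at least 40 windows. Genes at a body ratio of 1 or more and RFX3 are named, the dotted line marks equal values, and 23 of the 38 genes lie above it. Because the extremes were chosen by their body ratio, this count describes the genes drawn and not the genes of the arm.

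A list of 9 long genes, mostly of neurons and cell adhesion but with DOCK8 and TEK among them, had a median ratio of 1.08, with 5 of them above 1. PTPRD, a receptor phosphatase of 4598 windows, had 443 listed (9.63%, 8.82 to 10.5%) and a ratio of 1.08. It reaches from the bins at 8 to 10 Mb, with ratios of 0.787 and 0.741, into the bin at 10 Mb, with 2.12. LINGO2, a leucine-rich repeat membrane protein, had 47 of 2552 (1.84%, 1.39 to 2.44%) and a ratio of 0.214, among the 5 lowest of the genes with at least 40 windows. ADAMTSL1, a secreted matrix protein, had 580 of 2009 and a ratio of 2.44, compared with 1.45 in its flanks. MPDZ, a PDZ scaffold of tight junctions, was at 3.42, FREM1, a basement membrane protein, at 2.41 and SH3GL2, an endophilin, at 1.82. DOCK8, an exchange factor of lymphocytes, was at 0.459, KANK1 at 0.767 and TEK, the angiopoietin receptor, at 0.872.

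The 5 highest genes of the order lay in the high blocks. Of the lowest, ZNG1A and WASHC1 lay at the tip of the arm and LINGO2 mostly in the low block from 28 Mb. RFX3 and SLC24A2 lay in bins that were neither high nor low, at 3 to 4 Mb (ratio 1.22) and 19 to 20 Mb (0.638). Both of these bins span a border, and the 100 kb bins over the 2 genes were low. For RFX3 they ran from 0.0513 at 3.3 Mb to 0.405 at 3.5 Mb. For SLC24A2 they ran from 0.221 at 19.5 Mb to 0 at 19.7 Mb. After CD274, NFIB and UHRF2, the next highest were AK3, a mitochondrial adenylate kinase, with 52 of 65 windows (80.0%) and a ratio of 4.41, and ERMP1, an endoplasmic reticulum metallopeptidase, with 168 of 259 (64.9%) and 4.27. The lowest were ZNG1A with 0 of 116 windows, WASHC1 with 1 of 119, SLC24A2 with 10 of 563 and a ratio of 0.143, RFX3 and LINGO2. ZNG1A and WASHC1 lie within the first 0.2 Mb and had 0% of windows with unique sequence, so that their low listing cannot be told apart from discarded reads, whereas 85.1% of the windows of SLC24A2 were unique. Of the 105 genes, 32 had a ratio at or above 2 and 22 at or below 0.5. The matching shares of autosomal genes were not computed, so these counts only describe the arm. Among autosomal 1 Mb bins, 4.64% and 28.8% passed the same limits.

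The 3 hypoxia-linked genes were examined because the cells were exposed to low oxygen. CA9 encodes carbonic anhydrase IX, a well-known target of hypoxia-inducible factors (HIF). The motif searched was the core of their binding site, ACGTG or GCGTG on either strand, in the 200 bp upstream of the start site. It was found in 75 of 203 protein-coding genes of the short arm (36.9%) and in 45.3% of 18978 autosomal genes. In CA9 the core begins at -18 bp from the start, and the 30 bases before the start, chr9:35673895-35673924 (GRCh37, plus strand), are shown with the core in capitals.
CA9-201: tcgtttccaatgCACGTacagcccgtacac

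The window of this site, chr9:35673501-35674000 with 7 CpG, was listed, where 53.3% was predicted for such windows. CA9 had 6 of 14 body windows listed (42.9%, 21.4 to 67.4%) with a ratio of 1.22, compared with 0.645 in its flanks. Its 1 listed promoter window of 6 is the window of the site just named. PLIN2, a lipid droplet coat protein, had 27 of 82 (32.9%, 23.7 to 43.7%) and a ratio of 1.29, next to 1.28 in its flanks. VLDLR, a lipoprotein receptor, had 4 of 78 (5.13%, 2.01 to 12.5%) and a ratio of 0.305, in a flank of 0.334. Only VLDLR of the 3 had a share whose interval excluded the prediction, which is no test, as windows were taken as independent. As the listing combines the 4 libraries, it cannot show a change of these genes in hypoxia.

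The 16 genes listed for 9p13, near the proximal end, are of mixed function and include chemokines, housekeeping genes, UNC13B and PAX5, which is also among the 10 regulators above. Their median ratio was 0.729, and 3 of them were above 1. UNC13B with 487 windows and PAX5 with 402 hold most of the 1340 windows of these genes. VCP, the AAA ATPase of protein degradation, had 4 of 37 windows and a ratio of 0.401. UNC13B, a regulator of synaptic vesicle release, had 16 of 487 (3.29%, 2.03 to 5.27%) and a ratio of 0.221, while CLTA, clathrin light chain A, had 63 of 228 and a ratio of 1.08. TLN1, which links integrins to actin, had 17 of 70 and a ratio of 0.681. FANCG, STOML2 and CCL21 had 0 of 12, 0 of 6 and 0 of 2 windows listed, and CCL19 and CCL27 had 2 of 4 each. RMRP is too short to hold a window midpoint.

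Around the start sites of protein-coding genes the listing dipped. In the 500 bp downstream of the start, 23.2% of 203 windows of the short arm were listed where 37.0% were predicted, a ratio of 0.626, and on the other autosomes the ratio was 0.708. At 500 to 1000 bp upstream 41.4% were listed, a ratio of 1.39. In the high bins the dip was still present, from 70.7% at 500 to 1000 bp upstream to 46.3% just downstream of the start (41 genes). In the low bins the same steps had 27.3% (6 of 22 genes) and 13.6% (3 of 22). With so few genes the low bins varied between steps, down to 9.09% at 2000 to 2500 bp upstream. With the promoter taken as the 3000 bp upstream, 146 of 203 genes (71.9%) had a listed promoter window, compared with 76.6% of 18978 autosomal genes. The window of the start itself was listed for 60 of 203 (29.6%).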

How the data were processed

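The members, lists and thresholds were chosen with earlier results of these data known. According to the study's methods, 50 bp single-end reads were mapped to hg19 with Bowtie 0.12.7, and reads that mapped once and were not duplicates were kept and processed with MEDIPS. The deposited table has windows of 500 bp with 4 value columns whose names match no sample, and these 4 columns were not used. Depth per library is therefore not given, and the only deposited measures used are the start and stop of each window, per the file headers. Windows were compared with GRCh37, whose chromosome 9 has the same length as in hg19, and with GENCODE version 44 lifted to it. CpG sites (up to 40) and GC content gave the predicted share. A window was taken as unique where 5 of 5 sampled 50-base sequences occurred once in the genome. Windows belong to a gene or promoter (3000 bp upstream of the canonical start) by their midpoint. Named genes are 8 lists, the 5 highest and 5 lowest protein-coding genes with at least 40 windows, and the extreme bins. MIR31, MIR31HG, GLDC and TUSC1 were named after their values were seen. The calculation was tested on simulated listings, with Python 3.11.15 and NumPy 2.4.6. Other settings of the prediction, the bins and the promoter were tried.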

Additional observations from a re-analysis of the deposited data

How the results depend on the processing

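The short arm was above its prediction (1.31) under 8 of 9 other settings. With no prediction there was no excess (1.00). The ratio was 1.21 with CpG number alone, 1.20 with the prediction from the long arm of chromosome 9, 1.36 with windows over 5000 bp from start sites, 1.20 with windows of unique sequence (a setting added after the data were seen) and 1.07 with the arm taken to the centromere gap. The ratio of the 9p21 locus (0.823) turned to 1.60 when only the bodies of CDKN2A, CDKN2B and MTAP were taken, and was 0.492 with no prediction, 0.72 with CpG number alone and 0.656 over 20 to 24 Mb. The lowest bin (0.133) was 0.0654 with no prediction and 0.0872 in bins of 0.5 Mb. The highest bin (3.52) was 3.16 with no prediction, 3.21 with CpG number alone, 3.26 with the prediction from the long arm, 3.24 in unique windows and 4.15 in bins of 0.5 Mb. The number of bins at or above 2 was 12, and 6 with no prediction. The short arm had 1.14 times the ratio of the long arm, and this order reversed with no prediction (0.744), with CpG number alone (0.998) and with the arm taken to the centromere gap (0.933). It was 1.18 over 5000 bp from start sites and 1.12 in unique windows. The cause of these shifts was not tested. The other 45 settings moved a ratio by less than its counting interval or a count by less than 1.5 times, the promoter definition among them.

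No paired analysis was possible because every condition has a single library and the value columns carry no condition. Alternatives for repeats and for scaling of the columns were not run, since the reference used has no repeat marks and the columns were not used.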

Other observations

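Beyond position 38500000, up to the centromere gap at 47317680, the short arm had 150 of 15518 windows listed (0.967%, 0.824 to 1.13%), with a ratio of 0.0611. Of these windows 2.37% had unique sequence, compared with 84.1% on the part of the arm described above. Its few listed windows are not counted among the 13586.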
